A study of Mus musculus with 2 samples.

Results

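The genes described here are 34 mouse genes of glucose uptake, glycolysis and the response to low oxygen, read in immune cells sorted from brains that carried a glioma. They were taken by symbol from the gene list of the deposited count matrices, and all 34 symbols were found, on 35 of 32285 rows, because Aldoa stands on 2 rows. The set holds 4 transporters, 16 glycolytic enzymes, 3 metabolic switches, 3 genes of oxygen sensing and 8 targets of low oxygen outside glycolysis. Wild-type mice and Fcgr2b knockout mice were inoculated with GL261 cells, a mouse glioma line, and received 200 µg of anti-PD-1 antibody by intraperitoneal injection on days 10, 13 and 16. Brains were taken on day 20, cells of 5 brains per genotype were pooled, and live CD45.2+ cells were sorted and made into 1 library per genotype with a 10x Genomics 5′ single-cell kit. Both genotypes carried the tumor and received the antibody, so the data hold no untreated and no tumor-free group. The sources used here give no age or sex of the mice and do not say how the Fcgr2b allele was made. With 1 library per genotype, a difference between genotypes cannot be told apart from a difference between 2 pools or 2 library preparations. No test was made for that reason, and every interval given covers counting error only.

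Glycolysis splits glucose into pyruvate in the cytosol. Glucose enters through the transporters Slc2a1 and Slc2a3, hexokinases trap it as glucose 6-phosphate, phosphofructokinase commits it to the pathway, and lactate dehydrogenase turns pyruvate into lactate, which leaves through Slc16a1 and Slc16a3. In low oxygen the prolyl hydroxylases (Egln genes) act less on HIF-1α, the product of Hif1a, which then binds DNA with its partner ARNT and raises transcription of many of these genes. Activated macrophages and dividing T cells also run glycolysis at a high rate when oxygen is present. Hif1a itself is regulated largely at the level of its protein, which was not measured here.

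HIF-1 binds the 5 bases ACGTG or GCGTG, and promoters of members described below are shown so that these letters can be seen in place. The first 8 were chosen because they hold the motif, and that of Mif is shown as one without it. The stretches found for Vegfa and Tpi1 lie in annotated exons of these genes and are not shown. The sequences are from RefSeq on GRCm38.p6, 60 bases each, written 5′ to 3′ on the strand of the gene. Capitals mark ACGTG or GCGTG on either strand (CACGT or CACGC when read on the other strand), and overlapping matches run together.
Gapdh, chr6:125165791-125165850, minus strand: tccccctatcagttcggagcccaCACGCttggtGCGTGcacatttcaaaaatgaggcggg
Pgk1, chrX:106186932-106186991, plus strand: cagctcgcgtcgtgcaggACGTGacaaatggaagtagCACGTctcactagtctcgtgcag
Pgam1, chr19:41911742-41911801, plus strand: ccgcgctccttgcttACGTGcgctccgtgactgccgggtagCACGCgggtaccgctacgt
Ldha, chr7:46845736-46845795, plus strand: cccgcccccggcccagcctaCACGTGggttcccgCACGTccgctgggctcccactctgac
Aldoa, chr7:126799349-126799408, minus strand: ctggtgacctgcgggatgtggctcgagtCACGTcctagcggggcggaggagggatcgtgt
Bnip3, chr7:138909582-138909641, minus strand: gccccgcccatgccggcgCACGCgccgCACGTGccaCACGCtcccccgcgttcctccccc
Ankrd37, chr8:45999972-46000031, minus strand: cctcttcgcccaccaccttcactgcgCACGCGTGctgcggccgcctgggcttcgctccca
Pfkfb3, chr2:11502111-11502170, minus strand: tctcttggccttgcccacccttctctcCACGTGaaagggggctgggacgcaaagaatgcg
Mif, chr10:75860278-75860337, minus strand: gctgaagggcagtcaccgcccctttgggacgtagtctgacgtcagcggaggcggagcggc
The stretches end between 1 and 171 bases before the annotated start site.

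RefSeq promoters were matched for 30 of the 34 members; none was matched for Slc2a3, Bnip3l, Ndrg1 and Ero1l. In the 250 bases before the start site, 27 of the 30 (90%) held at least 1 of the motifs, against 41.5% of 27025 genes. At least 2 non-overlapping motifs stood in 19 members (63.3%), against 15.2% of all genes. For a gene with several start sites, the one with the most motifs was taken. Counted per promoter, 79.5% of 44 member promoters held at least 1 motif, against 38.6% of all promoters. At least 2 stood in 45.5%, against 13.5%. Gpi1, Tpi1 and Mif had none in this window. A match of 5 letters is a description of the sequence and does not show that the factor binds there. Members with the motif behaved differently across the libraries below: Gapdh and Aldoa were higher in macrophages of the library labelled Fcgr2b knockout, while Pgk1, with 2 motifs in the stretch shown, was not. Mif and Tpi1, with no motif in this window, were also higher in those cells.

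The wild-type library held 3854 cell barcodes and 14170828 unique molecular identifiers (UMIs, each standing for 1 captured RNA molecule). The library labelled Fcgr2b knockout held 9194 barcodes and 50921793 UMIs. After filters on genes, mitochondrial share and doublets, 3544 and 8172 cells remained, with medians of 2605.5 and 3966 UMIs; 38 of their barcode sequences occurred in both libraries. Ptprc, the gene of the sorting marker CD45, had a UMI in 85.0% and 81.8% of these cells. The targeted gene Fcgr2b did not go the way of the label over all cells, with a level (CPM, UMIs per 1000000 UMIs of the same cells) of 63.2 on 814 UMIs for wild type and 116.55 on 5017 UMIs for the other library. Within macrophages and monocytes it was lower, at 369 CPM (417 UMIs) against 248 CPM (4087 UMIs), and within microglia it was 373 CPM against 132 CPM. In macrophage cluster M3, described below, Fcgr2b was nonetheless among the leading genes against all other cells. This cluster held 10 wild-type and 515 knockout-labelled cells. Not all classes had a lower Fcgr2b level. In type 2 conventional dendritic cells Fcgr2b was 139 and 135 CPM, a ratio of 0.968 (0.752 to 1.25). In CD8 T cells it had 0 and 56 UMIs, and in regulatory T cells 1 and 38 UMIs. Reads from a 5′ kit can come from parts of a gene outside a deletion, and the sources used here do not name the deleted part, so this does not check the label. The second library is therefore called the library labelled Fcgr2b knockout, or the knockout-labelled library. Cells were clustered without the member genes and clusters were named from markers. The class sizes, wild-type library first, were 336 and 3501 macrophages or monocytes, 75 and 313 microglia, 531 and 1304 CD8 T cells, 297 and 559 regulatory T cells, and 799 and 382 NK cells. Names follow the leading markers and mean macrophage-like, microglia-like and so on.

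The level of the 16 enzymes together differed between classes by more than 2-fold in each library. Their summed level in the wild-type library was 5576 CPM in regulatory T cells, 5230 CPM in conventional CD4 T cells, 5161 CPM in cycling CD8 T cells and 4452 CPM in macrophages or monocytes, followed by type 1 (4187 CPM) and type 2 (4032 CPM) conventional dendritic cells and by CD8 T cells (3733 CPM). NK cells, at 2456 CPM, and B or plasma cells, at 2418 CPM, stood lowest among the 12 classes compared. In the knockout-labelled library macrophages or monocytes came first, at 6319 CPM, followed by cycling CD8 T cells at 5562 CPM and regulatory T cells at 5400 CPM. B or plasma cells, at 2205 CPM, and NK cells, at 2216 CPM, again stood lowest. Because a UMI counts a transcript once at its 5′ end, levels of different genes are compared here as molecules and no scaling by length was applied.

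**Figure D1:**
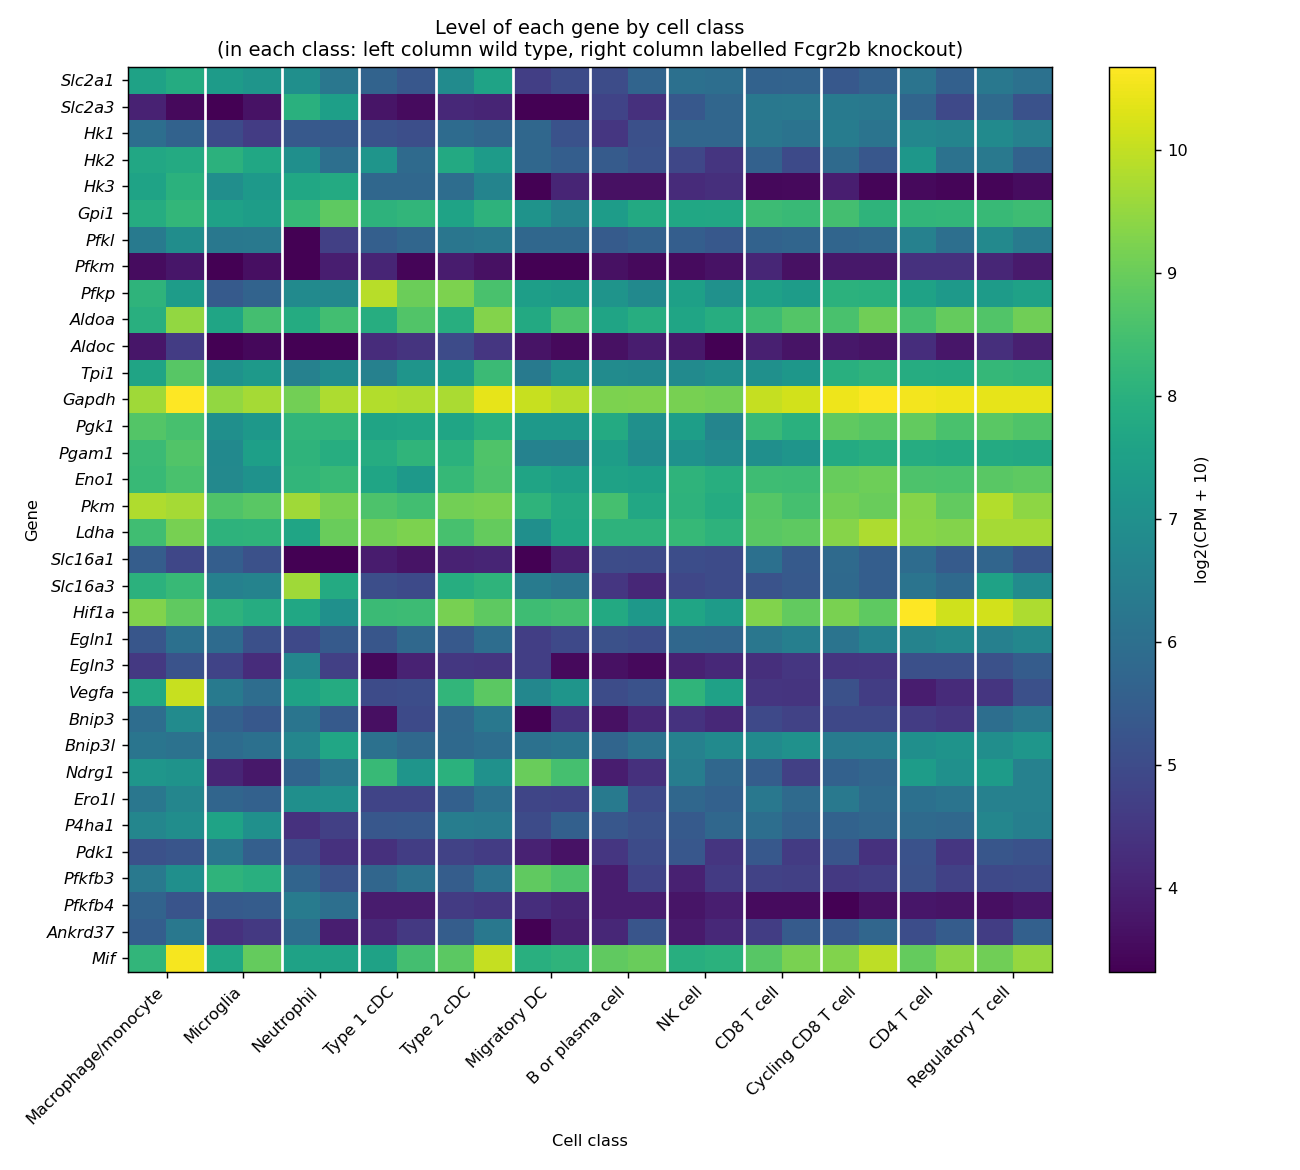
Level of each member gene (rows) in each compared immune class (columns) of the wild-type and the knockout-labelled library, drawn in colour as log2 of the level in CPM plus 10; the left column of each class is the wild-type library. Gapdh reached the highest level of the enzymes in macrophages or monocytes of the knockout-labelled library (1624 CPM), and Vegfa went from 5.08 CPM in conventional CD4 T cells to 1060 CPM in macrophages or monocytes.

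The choice of isozyme and transporter differed between macrophages or monocytes and CD8 T cells in both libraries. It did not divide all myeloid from all lymphoid classes. Slc2a1 gave 96.6% of the UMIs of the 2 glucose transporters in macrophages or monocytes of the wild-type library and 99.4% in the knockout-labelled library. In CD8 T cells it gave 37.3% in each library, and Slc2a3, the transporter with the higher affinity for glucose, gave the rest. Neutrophils, with 34 and 43 such UMIs, also had more Slc2a3 than Slc2a1, with Slc2a1 at 32.4% and 27.9%. Hexokinase showed a like division. Hk3 gave 41.9% and 49.6% of hexokinase UMIs in macrophages or monocytes, against 1.05% and 1.64% in CD8 T cells. Hk1, the widely expressed form, gave 62.3% and 72.2% in CD8 T cells. Hk2, the inducible form, was the leading hexokinase of microglia, at 65.5% and 55.5%.

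For phosphofructokinase, Pfkp led in type 1 conventional dendritic cells, where its level of 927 CPM in the wild-type library and 510 CPM in the other was the highest of the 12 classes. The liver-type subunit Pfkl gave 3.79% and 7.81% of phosphofructokinase UMIs there, but 67.9% and 61.8% in microglia. Pfkm, the muscle-type subunit, had no class above 10.9 CPM in either library. Aldoc, the brain-type aldolase, had no class above 22.2 CPM, whereas Aldoa lay between 187 CPM in B or plasma cells and 402 CPM in regulatory T cells of the wild-type library. The lactate exporter Slc16a3 gave 87.9% and 93.8% of lactate transporter UMIs in macrophages or monocytes, and all 74 and 40 of them in neutrophils. In CD8 T cells Slc16a1, which carries lactate in either direction, gave the larger share in the wild-type library, since Slc16a3 stood at 32.9% (25.4 to 41.0) against 49.1% (44.0 to 54.2) in the knockout-labelled library. These intervals do not overlap, and the level of Slc16a1 in those cells was 55.1 CPM against 32.4 CPM.

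**Figure D2:**
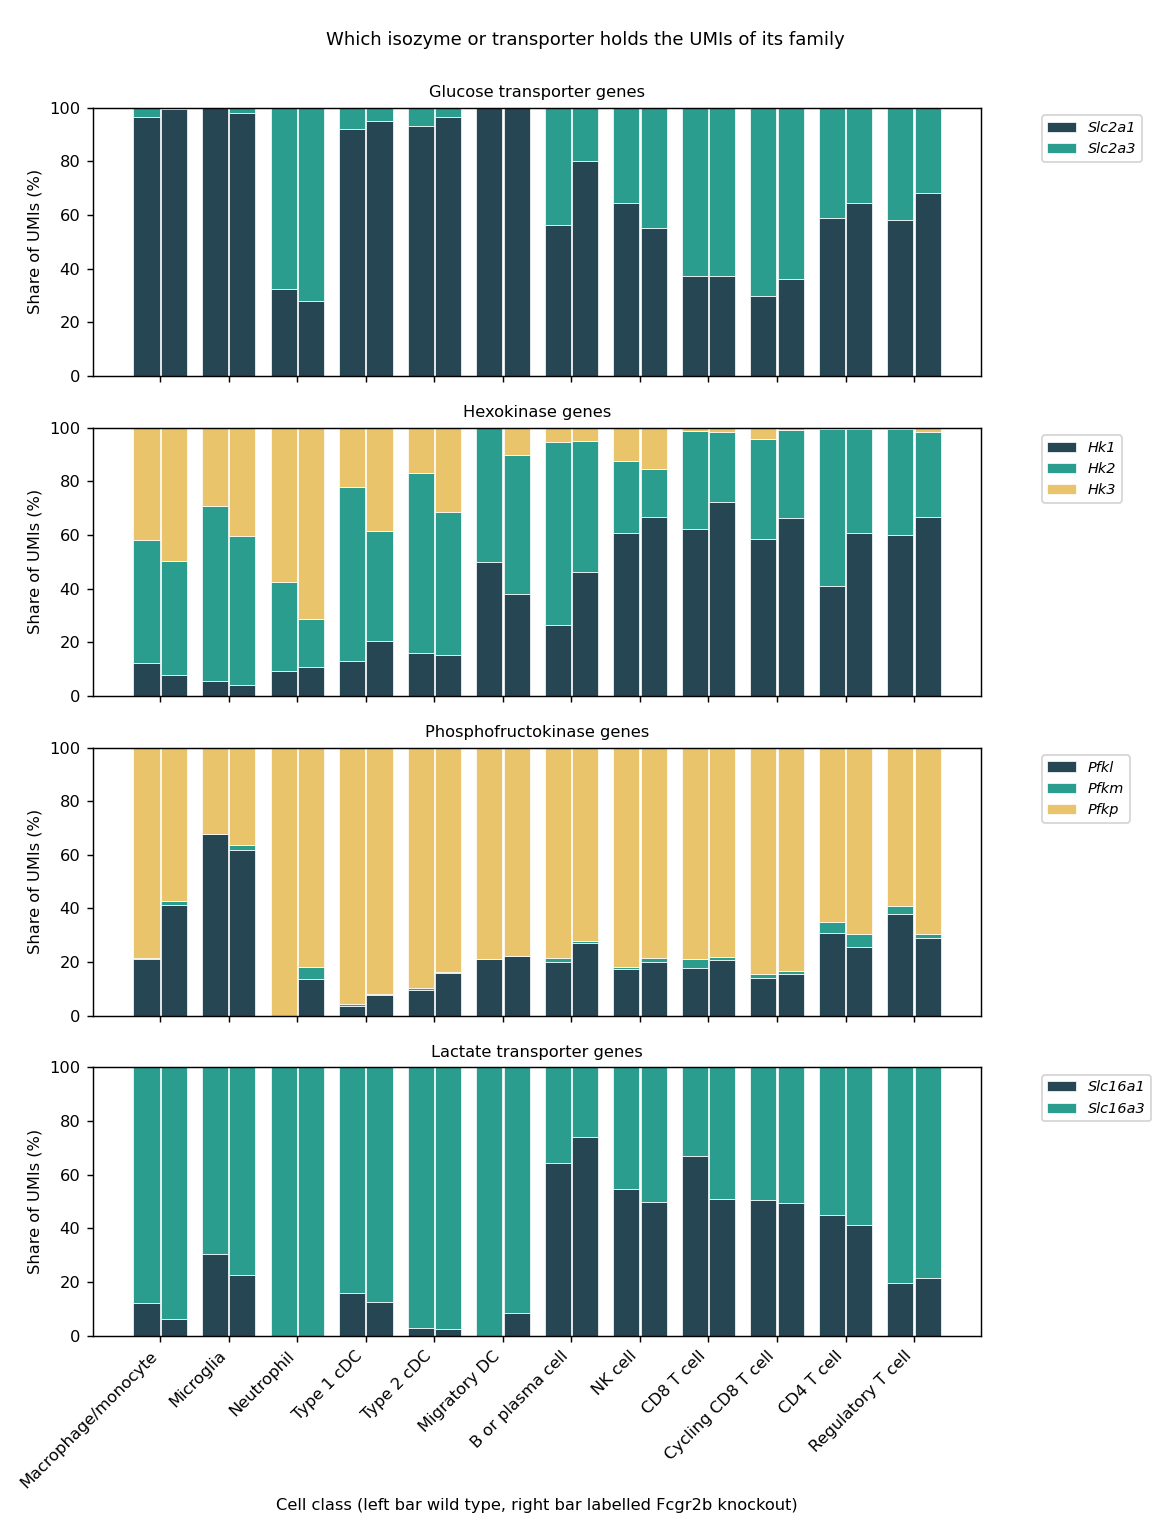
Share of UMIs (percent) given by each alternative gene of the glucose transporters, hexokinases, phosphofructokinases and lactate transporters, in 12 classes of both libraries. Slc2a1 takes 96.6% and 99.4% of glucose transporter UMIs in macrophages or monocytes but 37.3% and 37.3% in CD8 T cells.

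The highest class differed between hypoxia targets and switches, and some shared one. Vegfa, the blood vessel growth factor, was highest in the wild-type library in type 2 conventional dendritic cells (276 CPM) and NK cells (273 CPM), which differed by less than their counting error. Ndrg1, a stress-response gene, was highest in migratory dendritic cells of both libraries, at 499 and 356 CPM. Pfkfb3, which makes the activator of phosphofructokinase, was also highest there, at 461 and 385 CPM, followed by microglia at 266 and 241 CPM. P4ha1, a collagen prolyl hydroxylase, was highest in microglia, at 181 and 119 CPM, as was Pdk1, the kinase that holds pyruvate out of the mitochondria, at 64.0 and 36.9 CPM. Hif1a was highest in conventional CD4 T cells, at 1601 and 1125 CPM, and lay at 191 and 154 CPM in NK cells. Pfkfb4, which makes or removes the same activator as Pfkfb3, stayed at or below 73.7 CPM in the classes compared. Bnip3l, a mitophagy receptor, ranged in the wild-type library from 42.9 CPM in B or plasma cells to 118 CPM in conventional CD4 T cells. In the knockout-labelled library it ranged from 46.4 CPM in type 1 conventional dendritic cells to 195 CPM in neutrophils, the latter on 36 UMIs.

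In macrophages and monocytes Vegfa, Mif, 2 other hypoxia targets of the 8 and part of the glycolytic pathway were at least 1.5-fold higher in the knockout-labelled library than in the wild-type library. The summed enzymes stood at 4452 and 6319 CPM, a ratio of 1.42 (1.38 to 1.46). The targets outside glycolysis stood at 926 and 3148 CPM; without Mif they were 652 and 1627 CPM, a ratio of 2.50 (2.32 to 2.69), and without Mif and Vegfa they were 446 and 567 CPM, a ratio of 1.27 (1.16 to 1.39). Of the 34 members, 31 passed a mean of 10 CPM over both libraries, each with at least 10 CPM in both; Slc2a3, Pfkm and Aldoc did not. At least 1.5-fold higher, after adding 10 CPM to each level, were 12 of the 31, against a background of 10.5% of 6922 genes, and 2 were at least 1.5-fold lower, against 16.3%. At 2-fold the counts were 5 (Aldoa, Tpi1, Gapdh, Vegfa and Mif), against 3.57%, and 0, against 5.4%. The median log2 ratio was 0.32 over the members and -0.09 over all genes. Median-of-ratios scaling, which adds 0.16 to each log2 ratio here, gave 15 higher and 0 lower.

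Vegfa (ENSMUSG00000023951, chr17:46016993-46032369 on GRCm38) stood at 205 CPM (232 UMIs) in wild-type macrophages or monocytes and at 1060 CPM (17478 UMIs) in those of the knockout-labelled library. The ratio was 5.17 (4.54 to 5.91), and the counting intervals of both levels lay far apart. A Vegfa UMI was found in 23.8% and 75.2% of these cells, at medians of 3210.5 and 3996 UMIs per cell, and in 12.3% and 53.4% after each cell was thinned to 1000 UMIs. In CD8 T cells, with 2699 and 3795.5 UMIs per cell, 3.95% and 4.52% had one. Free RNA in the droplets was sized at 1.65 and 16.8 CPM of Vegfa in macrophages or monocytes, well under both levels.

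Mif (ENSMUSG00000033307, chr10:75859353-75860240), a secreted cytokine that is also a HIF target, stood at 274 CPM (310 UMIs) and 1521 CPM (25063 UMIs), a ratio of 5.55 (4.96 to 6.23). It was found in 38.4% and 88.5% of these cells, and in 19.1% and 67.6% after thinning. Mouse Mif and Gapdh have many processed pseudogene copies, and the labels do not say how reads shared with those copies were counted, so their levels carry that uncertainty. Bnip3, a mitophagy receptor, was 51.3 and 108 CPM, a ratio of 2.10 (1.62 to 2.78). Ankrd37, a small ankyrin protein, was 36.2 and 67.3 CPM, a ratio of 1.86 (1.36 to 2.60). Of the 8 targets 4 were thus past 1.5-fold and 4 were not. Ero1l, an oxidase of the endoplasmic reticulum, was 65.4 and 93.7 CPM, P4ha1 was 94.6 and 110 CPM, Bnip3l was 62.8 and 58.9 CPM, and Ndrg1 was 136 and 128 CPM.

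Within glycolysis the difference was uneven along the pathway. Aldoa (ENSMUSG00000030695, chr7:126795234-126800751), the aldolase that splits fructose 1,6-bisphosphate, stood at 240 CPM (271 UMIs) and 707 CPM (11655 UMIs), a ratio of 2.95 (2.62 to 3.34). Tpi1, the next enzyme, was 187 and 422 CPM, a ratio of 2.25 (1.97 to 2.60). Gapdh (chr6:125161715-125166467), which follows it, was 779 and 1624 CPM, a ratio of 2.09 (1.95 to 2.23). These 3 consecutive steps had the largest ratios among the enzymes past the minimum. Ldha, which makes lactate, was 336 and 560 CPM, a ratio of 1.67 (1.51 to 1.85), and Pfkl was 71.6 and 113 CPM, a ratio of 1.57 (1.26 to 1.99). Other steps differed less or lay the other way. Gpi1 was 223 and 280 CPM, Pgam1 was 314 and 396 CPM, and Eno1 was 301 and 370 CPM. Pgk1, the step after Gapdh, was 411 and 358 CPM, a ratio of 0.871 (0.792 to 0.959). Pkm, the last step, was 879 and 808 CPM, a ratio of 0.920 (0.862 to 0.982), which turned to 1.03 under median-of-ratios scaling.

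The entry steps differed by isozyme. Hk3 was 184 and 251 CPM, a ratio of 1.36 (1.19 to 1.58), Hk2 was 202 and 215 CPM, and Hk1 was 53.0 and 39.4 CPM. Pfkp went against Pfkl, at 267 and 157 CPM, a ratio of 0.587 (0.520 to 0.663), so that Pfkl gave 21.0% (17.1 to 25.5) of phosphofructokinase UMIs in the wild-type library and 41.3% (39.8 to 42.7) in the knockout-labelled library. Pfkm was 1.77 and 3.70 CPM. Aldoc, on 4 and 245 UMIs, was 3.54 and 14.9 CPM. Of the transporters, Slc2a1 was 178 and 221 CPM and Slc16a3 was 256 and 298 CPM, both under 1.5-fold, while Slc16a1 was lower, at 35.4 and 19.8 CPM, a ratio of 0.561 (0.403 to 0.80). Slc2a3 was close to the detection limit, with 7 and 21 UMIs.

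The oxygen-sensing genes lay on both sides of equality. Hif1a (chr12:73901375-73947530), the gene of the oxygen-regulated subunit, was 606 and 465 CPM, a ratio of 0.767 (0.709 to 0.830). Egln1, the main prolyl hydroxylase, was 29.2 and 56.1 CPM, a ratio of 1.92 (1.36 to 2.81). Egln3, itself a HIF target, was 13.3 CPM on 15 UMIs and 26.6 CPM on 438 UMIs, a ratio of 2.0 (1.20 to 3.61). Among the switches Pfkfb3 was 69.0 and 117 CPM, a ratio of 1.70 (1.36 to 2.16), Pfkfb4 was 40.7 and 27.9 CPM, and Pdk1 was 25.6 and 28.1 CPM.

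**Figure D3:**
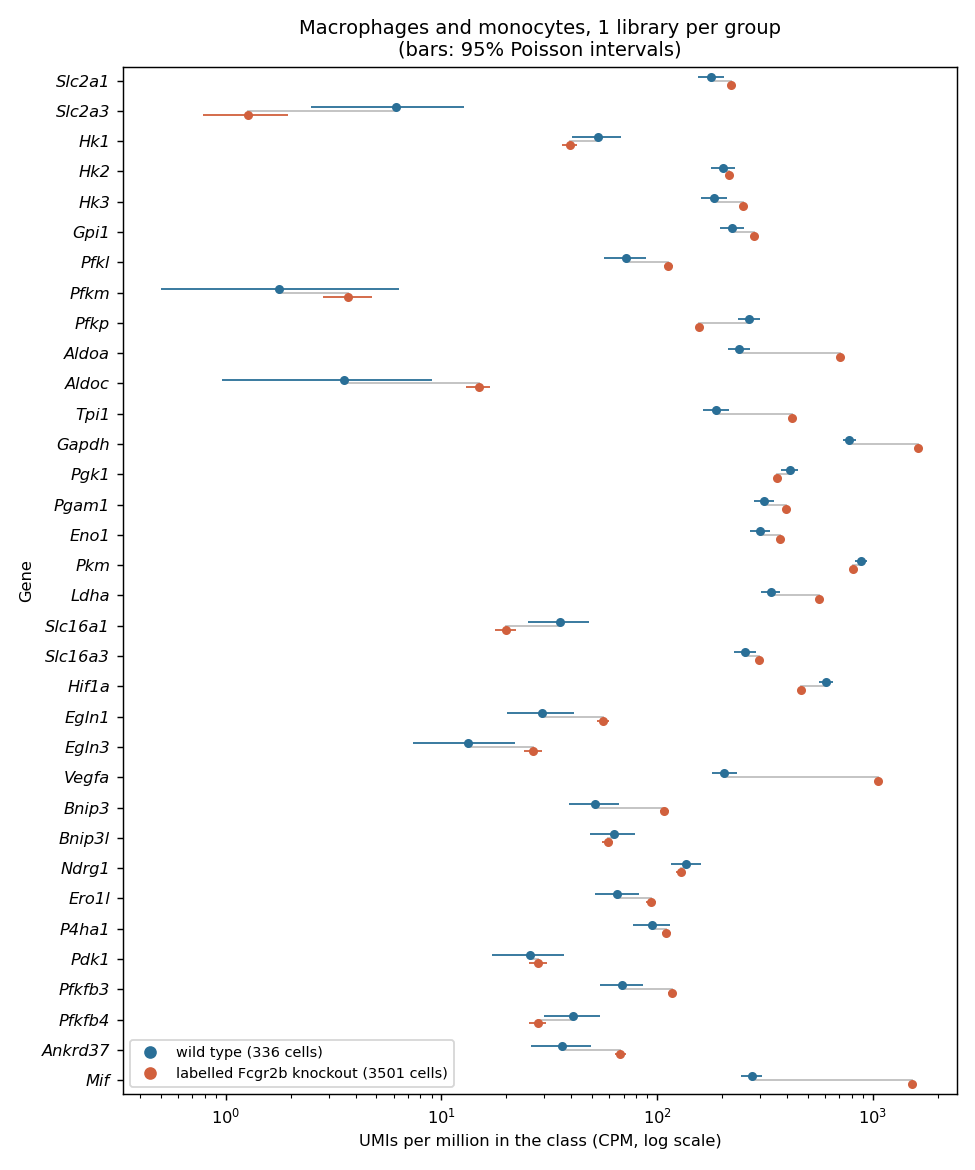
Level of the members in macrophages or monocytes in each library, in CPM on a log axis; bars are exact 95% Poisson intervals (counting error only). Vegfa (205 and 1060 CPM) and Mif (274 and 1521 CPM) lie farthest apart, and Pfkp (267 and 157 CPM) lies the other way.

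Macrophages and monocytes fell into 9 clusters, and the libraries filled them very unequally. The 4 clusters with at least 20 cells of each library (M1, M9, M10 and M11) held 293 wild-type cells (87.2% of the class) and 757 cells of the knockout-labelled library (21.6%). The other 5 (M0, M2, M3, M4 and M7) held 43 (12.8%) and 2744 (78.4%). M2 was led by Nos2, Inhba and Arg1, genes of activated macrophages. M0 was led by Cxcl2, Ier3 and Tnf, and Il1b and Dusp1, an immediate-early gene, were also among its leading genes. M3 was led by Ifnb1, Tgfbi and Arg1, and the targeted gene Fcgr2b was also among its leading genes. M9 was led by the monocyte genes Chil3, F13a1 and Vcan, and M11 by Ace, Adgre4 and Treml4, which mark patrolling monocytes. Elane, also a leading gene of neutrophils, and Mpo were among the leading genes of M9.

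Because the libraries fill the clusters so unequally, levels over both are mostly those of the library with more cells, the knockout-labelled one in M0, M1, M2, M3, M4, M7 and M11. The enzyme sum over both libraries ran from 3142 CPM in M11, 3549 CPM in M9 and 3643 CPM in M10 to 7092 CPM in M3 and 8648 CPM in M2. In the wild-type library alone the order was not the same, with M1 at 6674 CPM on 70 cells above M3 at 5607 CPM on 10 cells. Over both libraries Vegfa was 58.0 CPM in M9 and 1662 CPM in M0, with 1299 CPM in M2. Mif was 139 CPM in M10 and 2084 CPM in M2. M9, M10 and M11 were thus low and M2, M0, M3 and M4 high for both genes, and M1, also named from monocyte markers, stood between them at 685 CPM of Vegfa and 972 CPM of Mif. Aldoa went from 160 CPM in M10 to 1004 CPM in M2, Tpi1 from 79.9 to 569 CPM, and Gapdh from 595 to 2302 CPM in the same clusters. Bnip3 was 9.16 CPM in M9 and 184 CPM in M2, and Egln3 had 0 UMIs in M10 and stood at 50.3 CPM in M2. Some members had another order. Slc16a3 was highest in M1 (454 CPM), as were Hif1a (722 CPM) and Pfkfb3 (182 CPM), M1 being led by Slfn4, Ms4a4c and interferon-induced Ifit2 and Isg15. Pfkp was highest in M10, at 391 CPM, and lowest in M7, at 100.4 CPM. Clusters were drawn from these cells, so the differences between them are a description.

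Inside the clusters that both libraries filled, the enzyme sum was close to equal or lower in the knockout-labelled library. The ratio was 0.982 (0.930 to 1.04) in M1, on 70 and 605 cells, 0.999 (0.917 to 1.09) in M10, on 82 and 55 cells, and 1.03 (0.857 to 1.25) in M11, on 20 and 73 cells. In M9, on 121 and 24 cells, it was 0.741 (0.666 to 0.823). When these 4 clusters were given the same weights in both libraries, the enzyme ratio of 1.42 became 0.941, and 3 members in place of 12 were past 1.5-fold higher. That weighting leaves out M0, M2, M3, M4 and M7, with 78.4% of the class in the knockout-labelled library. Their sums, wild-type library first, were 4480 and 4993 CPM in M0, 7308 and 8657 CPM in M2, and 5607 and 7109 CPM in M3. They were 5676 and 6495 CPM in M4 and, the other way, 6259 and 4541 CPM in M7. These wild-type values rest on 15, 7, 10, 6 and 5 cells, in that order. In M1, 2 of 31 members were at least 1.5-fold higher (Vegfa and Mif; background 12.1%) and 7 lower (background 16.8%). In M10 the counts were 5 of 28 higher (background 12.7%) and 4 lower (background 20.3%), in M9 they were 1 of 28 (background 18.3%) and 17 (background 21.7%), and in M11 they were 5 of 29 (background 28.9%) and 8 (background 32.3%). Whether the genotype, the pool or the preparation moved the make-up of the clusters was not tested.

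Single members differed from the sum inside M1. Vegfa was 370 CPM (79 UMIs) and 712 CPM (1780 UMIs), a ratio of 1.92 (1.53 to 2.44). Mif was 511 and 1012 CPM, a ratio of 1.98 (1.63 to 2.42). In M10, Mif was 85.0 and 185 CPM, 2.18 (1.33 to 3.70), and Aldoa was 96.1 and 214 CPM, 2.22 (1.40 to 3.64). Vegfa in M10 was 99.8 and 84.9 CPM on 27 UMIs each. In M9 Mif was lower, at 200.2 and 116 CPM, a ratio of 0.579 (0.330 to 0.963). Pgk1 and Hif1a were lower inside each of the 4 clusters, with ratios of 0.646, 0.419, 0.567 and 0.657 for Pgk1 and 0.742, 0.411, 0.784 and 0.757 for Hif1a in M1, M9, M10 and M11; the intervals for both in M11 included 1.

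**Figure D4:**
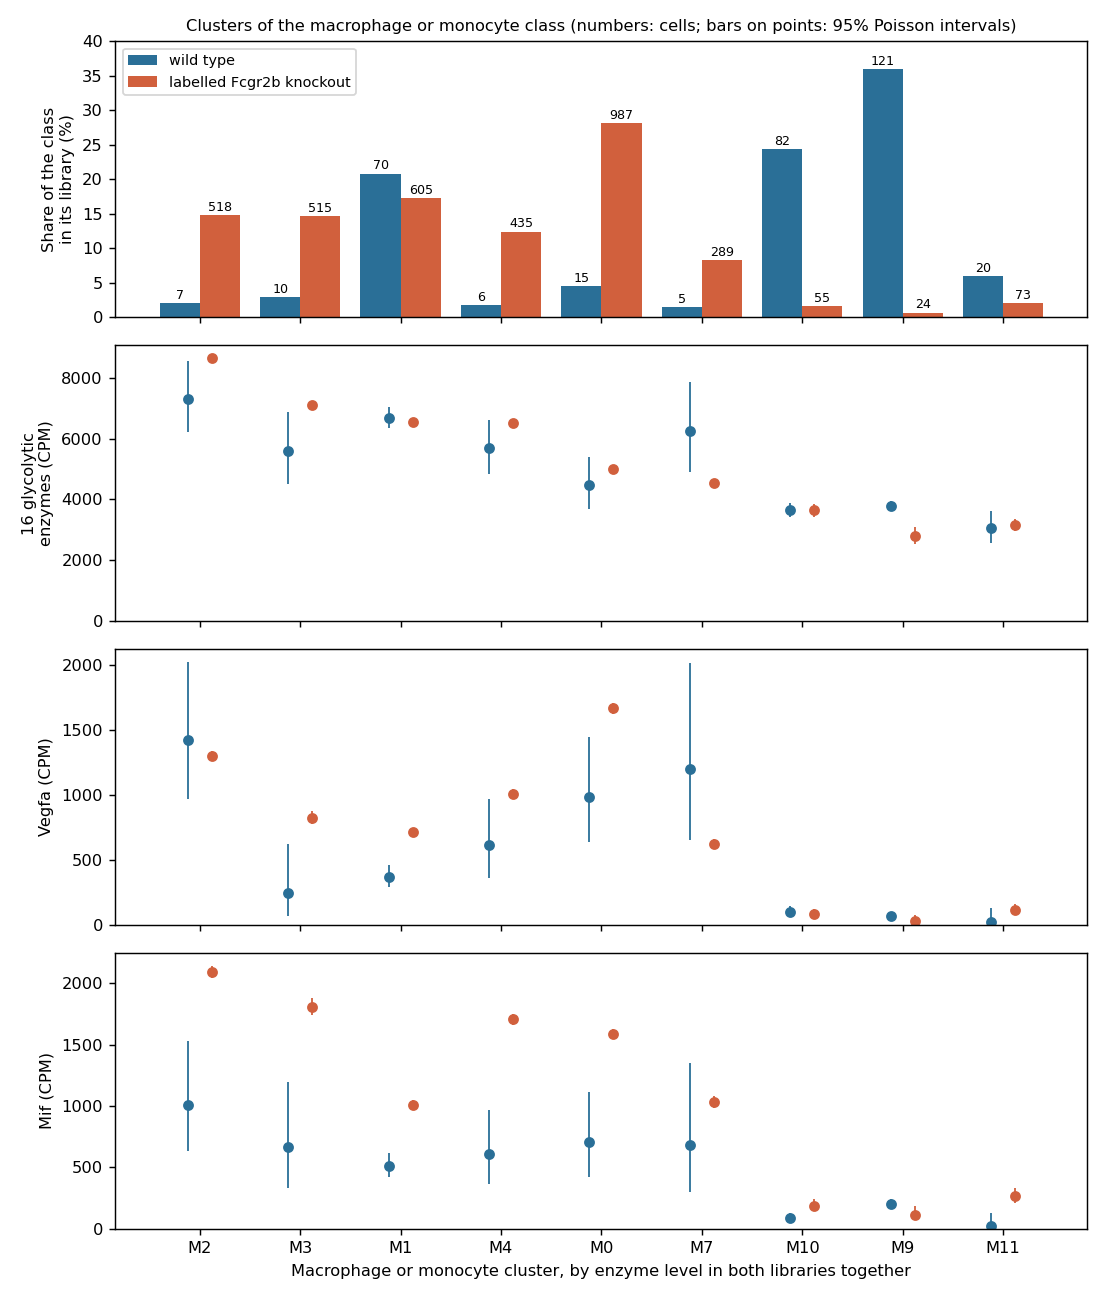
Share of the class (percent, with cell numbers), summed level of the 16 enzymes, and levels of Vegfa and Mif (CPM, with 95% Poisson intervals) in each macrophage or monocyte cluster of each library, ordered by the enzyme level. M2 reached 8657 CPM in the knockout-labelled library, while M9, where 121 of the 336 wild-type cells lay, stood at 3781 CPM in the wild-type library.

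Type 2 conventional dendritic cells, at 146 and 238 cells, showed a pattern near that of the macrophages. The enzyme sum was 4032 and 5330 CPM, a ratio of 1.32 (1.26 to 1.38). Of 31 members past the minimum 10 were at least 1.5-fold higher (background 8.07%) and 2 lower (background 12.9%). Aldoa was 235 and 629 CPM, a ratio of 2.68, Mif was 447 and 1037 CPM, 2.32, and Tpi1 was 155 and 310 CPM, 2.0. Gapdh was 838 and 1342 CPM, 1.60, Slc2a1 was 108 and 183 CPM, 1.70 (1.30 to 2.24), and Vegfa was 276 and 443 CPM, 1.61 (1.36 to 1.91). Lower were Pfkp, at 583 and 365 CPM, and Ndrg1, at 247 and 123 CPM. In the 1 cluster that held most of this class, M6, the enzyme ratio was 1.30 (1.24 to 1.36), and 9 members were past 1.5-fold higher (background 9.03%) and 3 lower (Pfkp, Aldoc and Ndrg1; background 13.5%). In this class the sum was thus higher inside a cluster as well. Vegfa, Hk3 and Pgam1, past 1.5-fold higher in the class, were not among the 9 in M6.

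Type 1 conventional dendritic cells, the cross-presenting subset, had 104 and 94 cells and an enzyme sum of 4187 and 3884 CPM, a ratio of 0.928. Aldoa (231 and 400 CPM), Tpi1 (84.0 and 134 CPM), Mif (180 and 349 CPM) and Bnip3 (2 and 28 UMIs) were the 4 of 29 members past 1.5-fold higher (background 6.17%), Bnip3 having passed the minimum only through the library where it is high. Hk2 (132 and 47.9 CPM), Pfkp (927 and 510 CPM) and Ndrg1 (301 and 133 CPM) were the 3 past 1.5-fold lower (background 9.78%). Migratory dendritic cells gave a ratio of 1.01 for the enzymes, with 3 of 24 members higher (Aldoa, Tpi1 and Ldha; background 11.9%) and 1 lower (Hk1; background 14.8%). Cycling markers were also higher in type 1 cells of the knockout-labelled library, at 236 and 676 CPM summed, with 7 of 10 past 1.5-fold higher. The free RNA share was higher in these classes, at 5.61% and 10.1% of the library-wide level in type 1 cells and 3.76% and 8.31% in migratory cells. The part of either in the values was not tested.

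In microglia, the resident macrophages of the brain, the enzyme sum was 2658 and 3066 CPM, a ratio of 1.15 (1.07 to 1.25). Only 1 cluster, M5, was filled by both libraries, with 70 and 286 of these cells, and there the ratio was 1.14. Because M5 holds most of the class, this value had to stay near 1.15. It is therefore no check of cluster make-up like the 0.941 of macrophages or monocytes. The difference between the classes was not tested. Past 1.5-fold higher were 3 of 30 members (background 8.88%) and past 1.5-fold lower 2 (background 19.6%); at 2-fold these were 1, Mif (background 2.68%), and 0 (background 3.8%). Mif was 199 and 476 CPM, a ratio of 2.39 (1.83 to 3.20). Aldoa was 192 CPM on 54 UMIs and 349 CPM on 623 UMIs, a ratio of 1.82 (1.37 to 2.45). Pgam1 was 103 and 169 CPM, a ratio of 1.64 (1.12 to 2.49). Egln1 lay the other way from macrophages, at 49.7 CPM on 14 UMIs and 24.6 CPM on 44 UMIs, a ratio of 0.495 (0.266 to 0.978). Pdk1 was 64.0 and 36.9 CPM, with an interval of 0.339 to 1.03. Vegfa was 71.1 and 52.0 CPM and Hk2 256 and 199 CPM. With 75 wild-type cells the intervals are wide, and median-of-ratios scaling adds 0.22 to each log2 ratio of this class.

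In CD8 T cells the enzyme sum was 3733 and 3798 CPM, a ratio of 1.02 (0.990 to 1.05). Past 1.5-fold higher was 1 of 30 members, Ankrd37 (background 3.27%), and past 1.5-fold lower were 4 (background 5.51%); at 2-fold both counts were 0 (background 0.552% and 0.815%). Ankrd37 was 15.4 CPM on 28 UMIs and 33.4 CPM on 200 UMIs, a ratio of 2.17 (1.46 to 3.35). Lower were the inducible hexokinase Hk2, at 38.5 and 21.4 CPM, 0.555 (0.412 to 0.754), and Slc16a1, at 55.1 and 32.4 CPM, 0.589 (0.460 to 0.758). Ndrg1 was 34.7 and 16.4 CPM, 0.472 (0.341 to 0.659), and Pdk1 was 30.8 and 14.2 CPM, 0.461 (0.325 to 0.658). The abundant enzymes differed by less than 1.5-fold, in both directions. Gapdh was 1043 and 1154 CPM, Ldha was 437 and 456 CPM, and Aldoa was 318 and 406 CPM, 1.28 (1.17 to 1.40). Pgk1, at 304 and 244 CPM, and Pkm, at 415 and 355 CPM with a ratio of 0.856, lay the other way. The glucose transporters were close to equal, Slc2a1 at 39.6 and 40.5 CPM and Slc2a3 at 66.6 and 67.9 CPM. Scaling by median of ratios, which adds 0.11 to the log2 ratios, left 2 of the 4 lower calls.

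Regulatory T cells had the highest enzyme sum of the wild-type library. After thinning to 1000 UMIs their wild-type mean was 4.64 enzyme UMIs per cell, under 4.90 in conventional CD4 T cells. The class includes cluster L8, with 108 and 126 cells, whose cycling markers were higher (mean log2 1.86). Cycling cells were not split off in this class, and their part was not tested. The sums of both libraries were close, at 5576 and 5400 CPM, a ratio of 0.968 (0.942 to 0.996). This ratio turned to 1.01 under median-of-ratios scaling and when the 2 clusters of the class were given the same weights in both libraries. The transporters together were lower, at 336 and 217 CPM, a ratio of 0.647. Slc2a3 was 48.5 and 26.2 CPM, 0.540 (0.383 to 0.765), and Slc16a3 was 177 and 106 CPM, 0.597 (0.502 to 0.711). With Hk2 (68.8 and 39.9 CPM) and Ndrg1 (155 and 83.6 CPM) these made 4 of 30 members past 1.5-fold lower (background 4.87%). Ankrd37, at 15.4 and 37.4 CPM, and Vegfa, at 12.1 CPM on 15 UMIs and 25 CPM on 80 UMIs, were the 2 past 1.5-fold higher (background 4.12%). At 2-fold no member was higher or lower (0 and 0; background 0.605% and 0.669%). Conventional CD4 T cells, at 283 and 401 cells, shared 2 of the lower members with them. Hk2 was 138 and 58.2 CPM, a ratio of 0.422 (0.340 to 0.523), and its share of hexokinase UMIs was 58.5% (52.9 to 63.9) and 38.9% (34.2 to 43.7). Slc2a3 was 42.8 and 20.8 CPM. With Pdk1 these were the 3 of 30 members past 1.5-fold lower (background 5.14%), and 0 were higher (background 3.97%).

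NK cells had low enzyme levels, 2456 and 2216 CPM, a ratio of 0.903 (0.859 to 0.949). No member of 26 was past 1.5-fold higher (0 calls; background 4.11%), and 4 were past 1.5-fold lower (background 5.95%); at 2-fold both counts were 0 (background 0.834% and 0.904%). Vegfa, which stood higher in NK cells than in macrophages or monocytes of the wild-type library (205 CPM), was 273 CPM on 491 UMIs and 176 CPM on 194 UMIs, a ratio of 0.645 (0.543 to 0.763), opposite to macrophages. A Vegfa UMI was found in 33.4% and 27.7% of NK cells, at medians of 1812 and 2449 UMIs per cell, and free RNA was sized at 2.69 and 18.9 CPM. Pgk1 was 164 and 91.6 CPM, 0.559 (0.441 to 0.703), Ndrg1 was 76.6 and 44.4 CPM, and Pdk1 was 30.0 and 11.8 CPM, 0.393 (0.197 to 0.730). Aldoa was 190 and 228 CPM, a ratio of 1.20 (1.01 to 1.41).

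**Figure D5:**
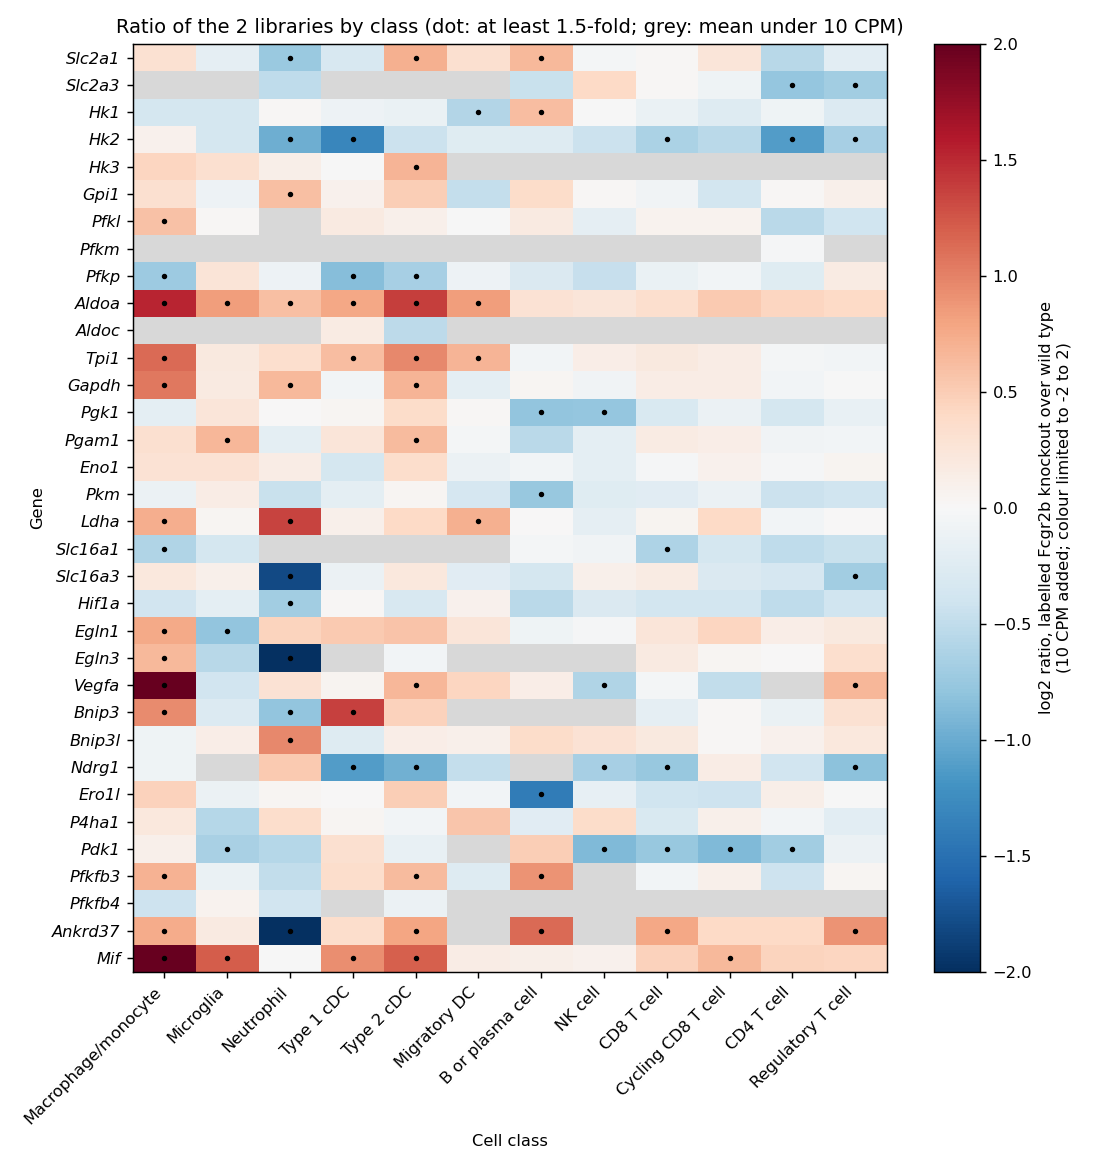
Log2 ratio of the knockout-labelled to the wild-type library (10 CPM added) for each member in each compared class; dots mark at least 1.5-fold, grey marks a mean under 10 CPM, and colours stop at -2 and 2. Aldoa and Mif lie above 0 in macrophages or monocytes, microglia, CD8 T cells, regulatory T cells and NK cells, and Hif1a lies below 0 in the same 5, although its microglia ratio was 1.01 under median-of-ratios scaling.

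Read across the 12 compared classes, some members lay on 1 side of equality in most. The counting interval of the ratio lay above 1 for Aldoa in 10 classes and below 1 in 0, and above 1 for Mif in 8 and below in 0. Among 4341 genes with at least 10 CPM in every class, 3.39% were above in at least 10 classes and 6.06% in at least 8. For Hif1a the interval lay below 1 in 8 classes and above in 0, which 6.17% of those genes also did, and for Pkm it lay below in 7, as for 9.24%. Hif1a was 612 and 471 CPM in CD8 T cells, 1139 and 860.0 CPM in regulatory T cells and 1601 and 1125 CPM in conventional CD4 T cells. Under median-of-ratios scaling the Hif1a ratio was 0.859 in macrophages or monocytes, 0.832 in CD8 T cells and 0.785 in regulatory T cells, but 1.01 in microglia. For Hk2 the interval lay below 1 in 6 classes, as for 13.2% of those genes in at least 6. The classes come from the same 2 libraries, so they are not independent repeats of the comparison.

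Cycling CD8 T cells, a cluster set apart by its cell-division genes, had higher enzyme levels than the other CD8 T cells of the same library. The sum was 3733 CPM in the other CD8 T cells and 5161 CPM in cycling ones of the wild-type library, a ratio of 1.38 (1.33 to 1.44), and 3798 and 5562 CPM in the knockout-labelled library, 1.46 (1.44 to 1.49). In the wild-type library 6 of 30 members were at least 1.5-fold higher in cycling cells (background 11.3%) and 0 lower (background 8.36%). In the knockout-labelled library 8 were higher (background 11.6%) and 1, Bnip3l, lower (background 7.12%). Tpi1 was 120 and 239 CPM in the wild-type library and 138 and 266 CPM in the other, so both showed a near equal ratio, 1.99 and 1.92. Pgk1, at 1.52 and 1.75, and Pgam1, at 1.83 and 1.78, also passed in both. Ldha was 456 and 855 CPM in the knockout-labelled library, 1.88 (1.78 to 1.97). Hif1a did not follow, with ratios of 0.951 and 0.955. Between the libraries, cycling CD8 T cells had 1 of 30 members past 1.5-fold higher (Mif, 618 and 975 CPM; background 6.37%) and 1 lower (Pdk1; background 8.56%). Cycling cells had 8004 and 11381 UMIs at the median, and CPM scales this difference out.

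In neutrophils, at 85 and 51 cells with medians of 866 and 1413 UMIs, few molecules stood behind each value, and the background was 30.7% of genes past 1.5-fold higher and 26.4% lower; 5 and 7 of 30 members were. Slc16a3 was 779 CPM on 74 UMIs and 217 CPM on 40 UMIs, and Ldha was 189 and 498 CPM. Free RNA was sized at 5.35% and 31.5% of the library-wide level in these cells. Summed cycling markers were 232 CPM (22 UMIs) and 2652 CPM (490 UMIs), wild-type library first, with 9 of 10 past 1.5-fold higher. The part of either in the member values was not tested. B or plasma cells had 4 of 27 members higher (background 13.8%) and 3 lower (background 12.6%), both near the background share. Among the lower was Ero1l, at 70.6 and 20.6 CPM. Among the higher, Pfkfb3 (5.04 CPM on 2 wild-type UMIs) and Ankrd37 passed the minimum only through the library where they are high.

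For genes of linked pathways in macrophages or monocytes the background is again 10.5% of all genes higher and 16.3% lower. Of 18 other hypoxia and HIF genes past the minimum, 6 were at least 1.5-fold higher and 3 lower, the latter close to the background share. Nos2, the inducible nitric oxide synthase, was 31.8 CPM on 36 UMIs and 360 CPM on 5928 UMIs, a ratio of 11.3 (8.15 to 16.2). Arg1, which draws on the same arginine, was 161 and 1353 CPM, a ratio of 8.41, and the lipid droplet gene Hilpda was 72.5 and 321 CPM, 4.43 (3.56 to 5.58). The pentose phosphate pathway, which branches off at glucose 6-phosphate, lay the other way. Its sum was 997 and 574 CPM, a ratio of 0.576 (0.541 to 0.613), with 3 of 7 genes past 1.5-fold lower, among them Tkt at 282 and 123 CPM and Taldo1 at 413 and 207 CPM. Of 22 respiration genes 1 was higher (Sdhb, 59.2 and 132 CPM) and 3 lower, among them Cs at 70.7 and 36.6 CPM; the sum was 2696 and 2623 CPM, a ratio of 0.973. Of 7 regulators of glycolysis 1 was higher (Rheb, 58.3 and 112 CPM) and 0 lower. Of 14 immediate-early and heat-shock genes, which respond to tissue dissociation, 4 were higher, Fosb at 446 and 1212 CPM and Fos at 1074 and 2540 CPM among them. Lower were 3, including Hspa1b at 1258 and 654 CPM and Jund at 2144 and 1180 CPM. The part of dissociation in the member values was not tested. Markers of cells that the sort should remove were low in this class: 8 neural or tumor markers, of which 2 were at 0 UMIs in each library, summed to 15 and 5.16 CPM, 7 endothelial markers to 103 and 79.5 CPM, and 7 erythroid markers to 30.9 and 2.61 CPM.

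For the same lists in CD8 T cells the background is 3.27% of all genes higher and 5.51% lower. Of 16 other hypoxia genes 0 were higher and 3 lower: Epas1 at 25.9 and 6.70 CPM, Cxcr4 at 213 and 99.6 CPM, and Egln2 at 47.3 and 19.9 CPM. Respiration genes summed to 3162 and 3740 CPM, a ratio of 1.18, with 1 of 22 higher (Mpc2, a pyruvate carrier subunit, 68.8 and 123 CPM). Rheb was 48.5 and 79.1 CPM, as the 1 of 8 regulators past 1.5-fold. Rpia, at 45.7 and 25.2 CPM, was the 1 of 6 pentose phosphate genes past 1.5-fold lower. Of 14 immediate-early genes 2 were lower, Junb at 1712 and 970.5 CPM and Dusp1 at 329 and 184 CPM, whereas Dusp1 in macrophages or monocytes was 1190 and 2210 CPM.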

How the data were processed

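Droplet single-cell RNA libraries of 2 sorted pools were analysed. The authors deposited a UMI count matrix per library; per the file headers it was made with Cell Ranger 6.1.2, and per the submitters' processing notes the build was mm10 (GRCm38). The labels name polyA RNA for the wild-type and total RNA for the other sample, and the sort step in the labels' protocol names lung, while tissue is given as brain. Members and gene lists were chosen with earlier results of these data known.

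Cells with fewer than 200 genes (10 and 13), over 10% mitochondrial UMIs (187 and 360) or called as doublets from simulated pairs (113 and 649) were removed. Clusters (Leiden, resolution 1, 15 neighbours, 30 components, 2000 variable genes, members left out) were named from markers at 50 CPM, log2 1 over other cells and 3 markers, thresholds set after the data were seen; unnamed clusters held 77 and 231 cells and mixed T clusters 295 and 392. These, plasmacytoid dendritic cells, mast cells or basophils and gamma-delta T cells were not compared. A difference from another naming may come from these rebuilt names.

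Counts were summed per class and library and divided by the class total (CPM). Intervals are exact 95% Poisson (levels), Clopper-Pearson (shares) and conditional binomial (ratios), covering counting error only. The 2 Aldoa rows (3904 and 27910 UMIs, and 2 and 6) were summed. A gene counted as higher or lower at 1.5-fold after adding 10 CPM, with a mean of at least 10 CPM. Every member is named. In each comparison values are given for up to 8 members with the largest log2 ratio, and beyond the rule for members of a pathway step. Of each further list 2 to 4 genes were named the same way. Free RNA was sized from genes of other classes. On counts simulated from the macrophage comparison (6918 genes), the size rule found 71.0% of 2-fold and 92.0% of 3-fold changes, and 0.342% of unchanged genes passed. For NK cells 1.38% of unchanged genes passed. The simulated counts held counting error only, with no difference of pool, preparation or cluster make-up. These shares are therefore not the rate of false calls in the real comparison. Python 3.11.15, numpy 2.4.6, scipy 1.17.1, scikit-learn 1.9.0, leidenalg 0.10.2 and matplotlib 3.10.9 were used.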

Additional observations from a re-analysis of the deposited data

Results flagged for a closer look

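In 13 of 33 members past 10 CPM in at least 2 classes, the counting interval of the ratio lay above 1 in a class and below 1 in another, against 15.6% of 9365 genes. In 4 of them (7.29% of the genes) the libraries also differed by at least 1.5-fold each way. The background genes needed the minimum in only 2 classes, whereas many members passed it in all 12. More classes and higher levels give more room for such a split, so the gap is not read as a trait of the members. The difference between classes was not tested. For Vegfa the log2 ratio of the knockout-labelled to the wild-type library was 2.32 in macrophages or monocytes and -0.61 in NK cells, a gap of 2.92. For Egln1 it was 0.76 in macrophages or monocytes and -0.79 in microglia, a gap of 1.54. For Egln3 it was 0.65 in macrophages or monocytes and -2.0 in neutrophils, a gap of 2.65, on 15 wild-type UMIs in the former and on 9 and 3 UMIs in the latter. For Ankrd37 it was 1.13 in B or plasma cells and -2.02 in neutrophils, a gap of 3.15, but this rests on 3 and 22 UMIs in B or plasma cells and on 5 and 1 UMIs in neutrophils, so that in each class it passed the minimum only through the library where it is high. Free RNA in neutrophils was sized at 5.35% and 31.5% of the library-wide level.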

How the results depend on the processing

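No paired analysis was possible because each genotype has 1 library, and no library could be left out for the same reason. Of 180 alternative values 121 were counted as little changed, 56 as moved and 3 as turned. A small crossing of equality was not always counted as a turn. Under median-of-ratios scaling the median log2 ratio went from -0.034 to 0.057 in CD8 T cells. In regulatory T cells it went from -0.029 to 0.026, and both counted as little changed. The CD8 T cell enzyme ratios of 0.988 and 0.983 given below counted as moved. The enzyme ratio of macrophages or monocytes (1.42) was 1.33 in thinned cells, 1.35 with cells weighted equally, 1.59 under median-of-ratios scaling, 1.28 without Gapdh, and turned to 0.941 over the clusters both libraries filled. In microglia (1.15) it was 1.25 with doublets kept and 1.34 under that scaling. In CD8 T cells (1.02) it was 0.988 with at least 500 genes per cell, 1.05 with equal cells, 1.10 under scaling, 1.07 over shared clusters and 0.983 without Gapdh. In regulatory T cells (0.968) it was 0.999 with doublets kept, 0.996 thinned, and turned to 1.01 both under scaling and over shared clusters. In NK cells (0.903) it was 0.967 with equal cells, 0.856 after free RNA was subtracted and 0.972 over shared clusters. Members past the size rule, higher, went from 12 in macrophages or monocytes to 5 at 2-fold, 7 with 50 CPM added and 3 over shared clusters; from 3 in microglia to 1 at 2-fold; from 1 in CD8 T cells to 0 at 2-fold, 0 with 50 CPM and 2 over shared clusters; from 2 in regulatory T cells to 0, 0, and 1 after free RNA was subtracted; and from 0 in NK cells to 2 over shared clusters. Lower, they went from 2 in macrophages or monocytes to 0 at 2-fold, 1 with 50 CPM and 0 under scaling; from 2 in microglia to 0, 0 and 1, with 4 at 1 CPM added; from 4 in CD8 T cells to 0, 0 and 2, with 2 over shared clusters and 2 when members were allowed to shape the clusters; from 4 in regulatory T cells to 0 and 1, with 1 when doublets were kept; and from 4 in NK cells to 0 and 1. The cause was not tested, except that a larger fold or added value passes fewer genes by construction. The median log2 ratio under scaling was 0.48 in macrophages or monocytes (0.32 without) and 0.23 in microglia (0.03). Thinning took the share of cells with an Ldha UMI, wild-type library first, from 53.3% and 73.8% to 22.3% and 37.9% in macrophages or monocytes, from 45.3% and 55.0% to 16.9% and 19.7% in microglia, from 55.6% and 66.3% to 25.7% and 28.8% in CD8 T cells, from 71.4% and 71.7% to 46.9% and 43.8% in regulatory T cells, and from 37.7% and 42.9% to 21.9% and 19.4% in NK cells. Depth limits microglia, neutrophils and members under about 10 CPM.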

Other observations

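Mast cells or basophils, too few for a comparison in the knockout-labelled library (181 and 14 cells), held Ero1l at 1336 CPM (739 UMIs) and 472 CPM (26 UMIs). Among the 12 compared classes Ero1l reached at most 119 CPM, in neutrophils. Free RNA was sized at 15.9% and 40.3% of the library-wide level in these cells. Plasmacytoid dendritic cells, at 46 and 95 cells, had an enzyme sum of 2199 and 1665 CPM, a ratio of 0.757 (0.679 to 0.846).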
